A study of Rattus norvegicus with 23 samples.

Results

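Of the 5088 probes on a rat array, 78 carried the symbol of an interleukin, a CC, CXC or CX3C chemokine, a member of the tumour necrosis factor (TNF) family, a colony-stimulating factor, an interferon, or one of their receptors. They stood for 72 of the 4153 genes with a symbol. Members were taken by the start of the annotated symbol (Il, Ccl, Ccr, Cxcl, Cxcr, Cx3c, Tnf, Csf or Ifn), and interleukin 6 and its signalling subunit Il6st were not included. The set held 17 probes of chemokine ligands, 10 of chemokine receptors, 17 of interleukins, 15 of interleukin receptors and binding proteins, 3 of TNF ligands, 6 of TNF receptors, 5 of colony-stimulating factors and their receptors, and 4 of interferons and a receptor. The last probe was that of Tnfaip6, a secreted hyaluronan-binding protein named for its induction by TNF, which is neither a cytokine nor a receptor. Of the genes, 6 had 2 probes each (Ccl2, Il3, Cxcr4, Il1b, Il1rl1 and Tnfrsf1b). Probes are named by plate and well of the oligonucleotide set, so that 52C04 is read here as plate 52, row C, column 04.

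The study asked how a conditioning lesion, the cutting of a sensory neuron's peripheral axon, changes mRNA levels in the dorsal root ganglion (DRG) that holds the cell bodies. Long-Evans rats of postnatal days 20 to 24 had the sciatic nerve transected, and the lumbar ganglia L4 and L5 were taken at 4, 8, 12, 18, 24, 48, 148 or 296 h. Each of the 23 arrays compared Cy5-labelled RNA of lesioned ganglia with Cy3-labelled RNA of intact ganglia, on 3 arrays per time and on 2 at 296 h. One of these 2 has 294 h as its time label. No genotype other than the strain is given, and neither the sex nor the source animal of the intact RNA is given. It is also not stated whether replicate arrays came from separate animals, so the p-values measure the spread between these samples, which may be technical. The labels name the material as cultured DRG cells while the surgical text describes ganglia removed from animals, and the lesion and time labels were followed here. Ratios hold no levels, so the labelled tissue could not be checked by the abundance of its markers. 9 of 10 sensory neuron genes, 6 of 8 Schwann cell genes and 5 of 5 satellite glia genes looked for were on the array.

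Every value below is the log2 of lesioned over intact, so that 1 is a doubling and -1 a halving of the mRNA level in lesioned ganglia. The deposited ratio was read in that direction from the dyes. Because no array exchanged the dyes, a constant dye effect of a probe would add to each of its lesion effects and would cancel only in a difference between times. On 17 arrays 4945 to 5011 probes had a value (full arrays), including 75 to 78 of the 78 members. On 6 arrays, which were replicates 2 and 3 at 48 h, all 3 at 148 h and replicate 2 at 296 h, 2063 to 4353 probes had a value (sparse arrays), with 10 to 64 of the members. The spread of log2 ratios over the member probes was 0.38 to 0.99 (SD) on full arrays and 0.98 to 1.61 on sparse arrays. A whole ganglion mixes neurons, glia and immune cells, and fewer cells of a type cannot be told apart from less of the mRNA in each cell.

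Cytokines of these families are secreted signals, and each acts on cells that carry its receptor. Chemokines steer the migration of leukocytes through G-protein-coupled receptors, most interleukins and interferons signal through JAK kinases and STAT transcription factors, and TNF and interleukin 1 act largely through NF-kB. After peripheral nerve injury in rodents such signals are known to pass between injured sensory neurons, satellite glia, Schwann cells and resident or arriving macrophages, and some, Ccl2 among them, are made by the neurons themselves.

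Within the first day Ccl2 was higher in lesioned ganglia on both of its probes, with its highest first-day level at 8 h on one of them, and Tnfaip6 was higher too. Il7 and the receptor Il1rl2 were lower on each of the first-day arrays. Csf1 was lower on its only probe, one of plate 52. Over 4 to 24 h, 62.1% of that plate's probes were called, against 23.3% of those on other plates. The differences between the first-day times themselves were not called. Averaged over 4 to 24 h, 15 of 78 member probes (14 genes) passed an adjusted p of 0.05, with 9 higher and 6 lower in lesioned ganglia. That is 19.2% of the members, against 24% of all probes, so the members as a set were not called more often than the array as a whole. With every array given the same weight, 12 of 78 (15.4%) passed, against 12.4% of all probes. The median first-day value was 0.08 for the members and 0.04 for all probes, and the median size regardless of sign was 0.18 for the members and 0.17 for all probes. Tests were limma's moderated tests with Benjamini-Hochberg adjustment over all probes, and unless stated otherwise each array was weighted by how closely it followed the others.

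**Figure D1:**
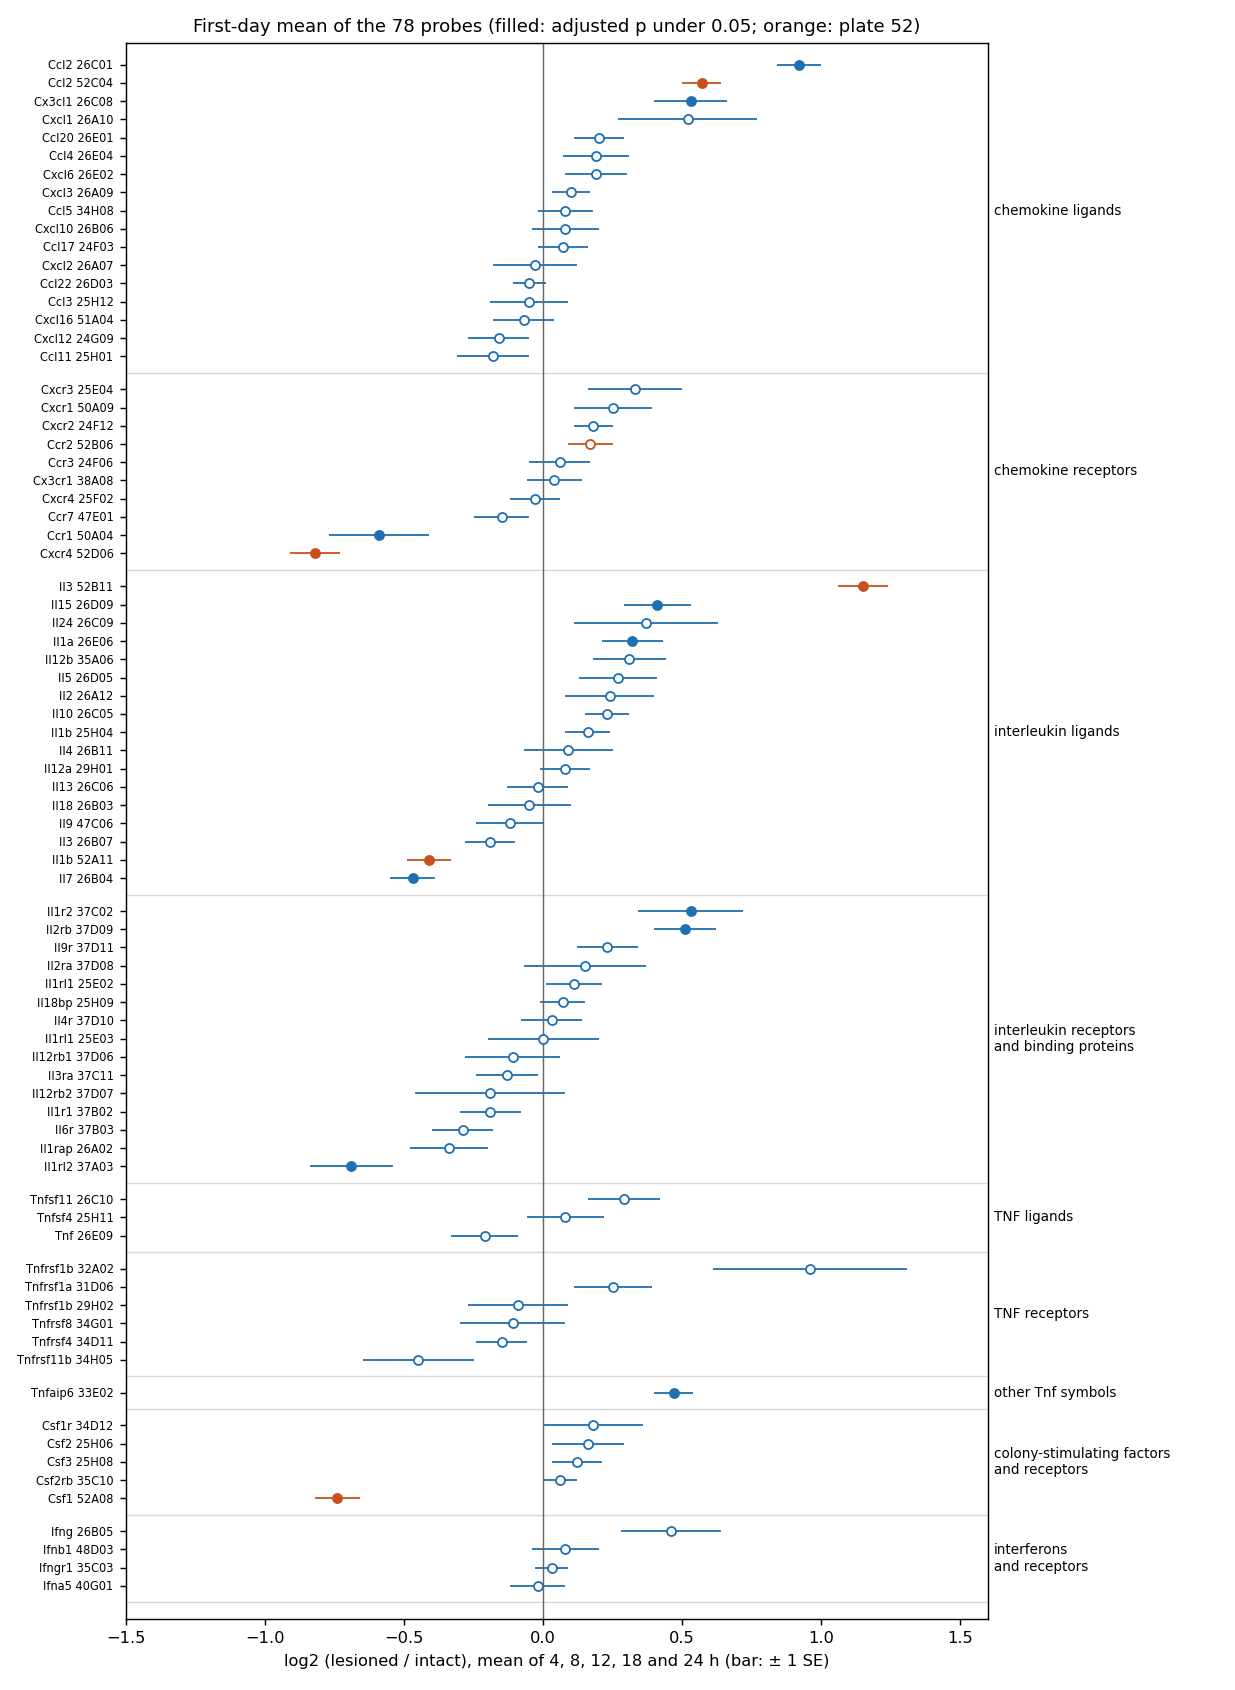
Mean log2 ratio (lesioned over intact) over 4, 8, 12, 18 and 24 h for each of the 78 member probes, grouped by role, with bars of 1 SE; filled points passed an adjusted p of 0.05 and orange marks probes of plate 52. Values run from -0.82 for Cxcr4 52D06 to 1.15 for Il3 52B11, both on plate 52.

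Markers of the ganglion's own cells were also called. Of all probes, 24% were called in the first-day mean and 8.75% at 148 h. Of 8 Schwann cell probes 4 were higher in the first-day mean (the myelin genes Prx, Pmp22 and, on 1 of its 2 probes, Mag, and the gap junction gene Gjb1, at 0.37 to 0.59) and 1 was lower (S100b on plate 52, -0.39). Of 5 satellite glia probes 0 were higher and 2 lower (Glul, -0.31, and Fabp7, -0.39). Of 11 sensory neuron probes 2 were higher and 2 lower in the first-day mean, and 0 were higher and 4 lower at 148 h. The part of these cells in the member values was not tested.

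At single times the called members were few. They were 3 of 78 at 4 h (1.85% of all probes were called), 4 of 78 at 8 h (1.26%), 6 of 78 at 12 h (3.61%), 5 of 78 at 18 h (2.07%) and 7 of 78 at 24 h (6.19%). As shares of the members these were 3.85%, 5.13%, 7.69%, 6.41% and 8.97%, each above the share of all probes. Without the probes of plates 36, 52 and 53 the called members were 0 of 72 at 4 h (0.799% of all probes), 1 at 8 h (0.42%), 2 at 12 h (2.93%), 2 at 18 h (1.43%) and 3 at 24 h (4.72%). These are 0%, 1.39%, 2.78%, 2.78% and 4.17% of the members, below the share of all probes at 4, 12 and 24 h. Later, limma with array weights called 0 of 67 at 48 h (3.96% of all probes), 1 of 36 at 148 h (8.75%) and 0 of 35 at 296 h (0.106%). At an unadjusted p under 0.05 there were 7, 6 and 3 members at these late times. These are 10.4%, 16.7% and 8.57% of the members, against 17.7%, 22.2% and 11.1% of all probes.

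Equal weights moved the calls from the early to the late times. They left 0 members at 4 h (0.538% of all probes), 2 at 8 h (0.42%), 0 at 12 h (0.139%), 0 at 18 h (0.379%) and 1 at 24 h (1.42%). They called 9 members at 48 h (15.6% of all probes), 9 at 148 h (28.7%) and 4 at 296 h (8.65%). At an unadjusted p under 0.05 equal weights gave 9, 8 and 11 members at 4, 12 and 18 h. These are 11.5%, 10.3% and 14.1% of the members, against 11.4%, 7.33% and 6.92% of all probes. The late arrays are mostly the sparse ones with the wider spread, and late values are therefore given below with both fits.

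No member was called as differing between the 5 first-day times (0 of 78, against 0.121% of all probes, and 0 of 78 against 0% with equal weights). At an unadjusted p under 0.05 there were 6 of 78 members in that F-test (7.69%, against 6.25% of all probes). The 3 lowest of those p-values belonged to Cxcl3 (0.00378) and the Ccl2 probes 52C04 (0.00397) and 26C01 (0.00932), with adjusted p of 0.515, 0.515 and 0.636. In the late mean (48, 148 and 296 h) minus the early mean (4, 8 and 12 h), only 24 member probes were measured often enough. Of these, 0 of 24 were called (4.98% of all probes), with 5 at an unadjusted p under 0.05 (20.8%, against 21.1% of all probes). Equal weights called 1 of 24, against 11.3% of all probes.

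**Figure D2:**
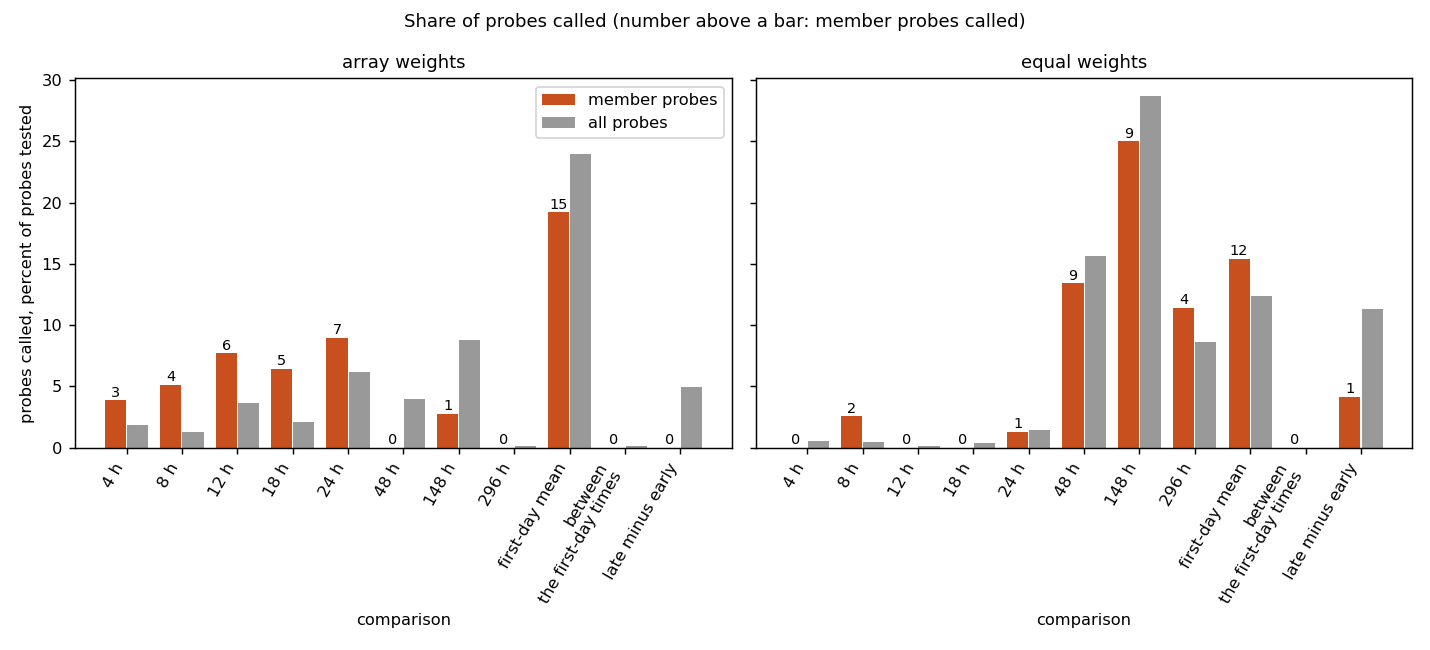
Percent of tested probes past an adjusted p of 0.05 in each comparison, for the member probes (orange, with their number above the bar) and for all probes (grey), with array weights on the left and equal weights on the right. With array weights the member share is above that of all probes at each of the 5 first-day times, where it rests in part on plate 52, and below it at 48 and 148 h.

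Ccl2, the monocyte-attracting chemokine, had the largest first-day rise among the chemokine ligands. On probe 26C01 the 3 arrays gave 0.36, 0.53 and 0.60 at 4 h, 1.26, 1.67 and 2.06 at 8 h, and 0.80, 0.97 and 0.54 at 12 h. All 3 arrays at 8 h lay above every array at 4 and 12 h. The arrays gave 0.95, 0.93 and 1.02 at 18 h and 0.99, 0.95 and 0.50 at 24 h. At 8 h the fitted value was 1.59 ± 0.18 (SE, n = 3), a 3.01-fold higher level, with an adjusted p of 9.99e-05 and of 0.00953 with equal weights. This call held in 23 of 23 fits that left out 1 array. The first-day mean was 0.92 ± 0.08 (SE, n = 15), 1.89-fold higher (adjusted p = 4.25e-07). At late times this probe gave 0.82, 1.46 and 1.47 at 48 h, 1.43 and 0.83 at 148 h, and 0.73 and 2.83 at 296 h. It was above 0 on 22 of the 22 arrays that measured it, and its late values were called with equal weights (adjusted p = 0.00624, 0.0190 and 0.00637) and not with array weights (0.0593, 0.119 and 0.163).

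The other Ccl2 probe, 52C04, was called at 8 and 12 h at about the same level and lay around 0 at late times. Its arrays gave -0.23, 0.24 and 0.40 at 4 h, 0.68, 1.34 and 0.95 at 8 h, and 0.96, 1.09 and 0.85 at 12 h. Its fitted value was 0.96 ± 0.17 at 8 h (adjusted p = 0.00423) and 0.97 ± 0.14 at 12 h (adjusted p = 0.000646). Without replicate 2 the 8 h value was 0.82 and was not called (adjusted p = 0.0912), and the 12 h value was not called without replicate 2 or 3 (adjusted p up to 0.154). The arrays gave 0.68, 0.37 and 0.48 at 18 h and 0.20, 0.61 and -0.18 at 24 h. After the first day they gave 0.25, 0.88 and 0.05 at 48 h, -0.32, -0.39 and 0.22 at 148 h, and -0.38 and 0.32 at 296 h. The late values of 26C01 stayed above 0. The late mean of 52C04 minus its early mean was -0.61 (adjusted p = 0.127, and 0.0284 with equal weights), and that of 26C01 was 0.41 ± 0.26 (adjusted p = 0.41). The first-day mean of 52C04 was 0.57 ± 0.07 (adjusted p = 2.55e-05).

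No macrophage gene was called at 8 h, the highest time of Ccl2 26C01 within the first day. Of 18 such genes looked for, 7 were on the array (Aif1, C1qb, Cd14, Cd53, Itgam, Lyz2 and Ptprc). At 8 h limma called 0 of 7, against 1.26% of all probes, with values of -0.67 to 0.32 and a median of 0.11. Lyz2 was lower at 4 h (-0.95, adjusted p = 0.0496) and Cd53 higher at 12 h (1.78, adjusted p = 0.0493), and in the first-day mean Cd53 was higher (0.93) and Lyz2 lower (-0.55). C1qb was higher at 48 h (1.86, adjusted p = 0.0437). At 148 h only 3 of the 7 had enough arrays, and C1qb (3.51) and Lyz2 (2.03) were higher. Both were also higher in late minus early, by 2.12 for C1qb (adjusted p = 0.00568) and 1.77 for Lyz2 (adjusted p = 0.0032). The part of these cells in the Ccl2 values was not tested. The receptor of Ccl2, Ccr2 (probe 52B06), was not called at any time, and its 15 first-day arrays ran from -0.47 to 0.74 around a median of 0.21 (mean 0.17 ± 0.08, adjusted p = 0.129).

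**Figure D3:**
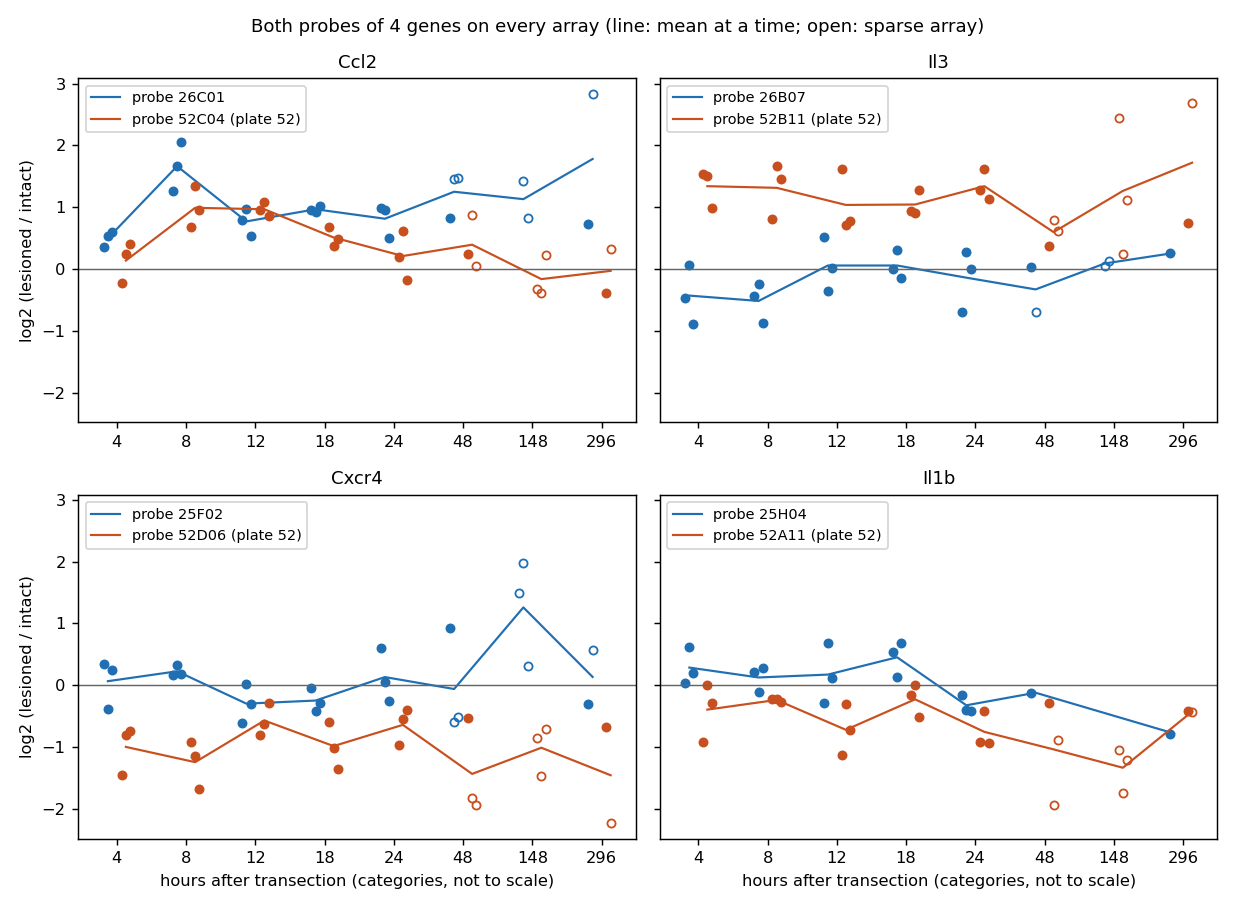
Log2 ratio (lesioned over intact) on every array against hours after transection for both probes of Ccl2, Il3, Cxcr4 and Il1b; lines join the mean of each time and open circles mark sparse arrays. Both Ccl2 probes lie above 0 on every array at 8 and 12 h. For Il3 and Cxcr4 the first-day mean of the plate 52 probe (orange) lies farther from 0 than that of the other probe. At 148 h Cxcr4 25F02 lies above 0 on every array and reaches 1.98.

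Cx3cl1, the membrane-bound chemokine fractalkine of neurons, was the other chemokine ligand with a higher first-day mean. Its 15 first-day arrays ran from -0.38 to 1.46 with a median of 0.68, and 13 of the 15 were above 0. The mean was 0.53 ± 0.13, a 1.44-fold higher level (adjusted p = 0.0075). No single time passed the test, and the 2 arrays at 48 h gave -0.56 and -1.53. Its receptor Cx3cr1, carried by macrophages and microglia, had a first-day mean of 0.04 ± 0.10 over 14 arrays that ran from -0.39 to 0.71.

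Cxcl3, a neutrophil attractant, was called at 24 h, where its 3 arrays gave 1.08, 0.56 and 0.62 (0.70 ± 0.17, adjusted p = 0.0253). At 4 h all 3 arrays were below 0 (-0.46, -0.22 and -0.73), so the 4 h and 24 h arrays did not overlap. The 24 h call was lost without any 1 of its 3 arrays (0.59 to 0.85, adjusted p up to 0.123). Its 148 h arrays gave 1.28 and 1.15 (adjusted p = 0.0712, and 0.0068 with equal weights). Cxcl1, a close relative, was uneven. Its arrays gave 2.39, -0.94 and 0.79 at 4 h, 1.71, -0.73 and 0.42 at 8 h, and 3.30 and 0.52 at 24 h. The first-day mean of Cxcl1 was 0.52 ± 0.25 (adjusted p = 0.139), and it rests on a few high arrays. The remaining chemokine ligands had first-day means of -0.18 (Ccl11) to 0.20 (Ccl20), and none was called at any time in either fit.

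For Cxcl1, Cxcl2 and Cxcl6 the promoters are shown because letters of the NF-kB consensus recurred in them, although none of the 3 genes was called in the first-day mean. Promoters came from RefSeq on the GRCr8 build, with 250 bases before the start of a gene searched on both strands, and 54 of the 72 genes matched. NF-kB consensus letters stood before 11 of 54 member genes (20.4%), against 3.54% of all 33469 promoters of that length. A member gene was counted once if any of its promoters held the letters, while the 33469 promoters were counted singly. None of the 11 genes was called in the first-day mean. The windows run from 110 to 51 bases before the start, on the minus strand at chr14:17479372-17479431 (Cxcl1), chr14:17467306-17467365 (Cxcl2) and chr14:17596468-17596527 (Cxcl6), with the consensus in capitals.
Cxcl1: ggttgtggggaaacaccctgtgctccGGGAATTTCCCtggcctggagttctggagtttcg
Cxcl2: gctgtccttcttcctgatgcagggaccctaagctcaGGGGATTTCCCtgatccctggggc
Cxcl6: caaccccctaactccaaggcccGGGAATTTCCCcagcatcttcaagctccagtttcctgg
In each window 2 overlapping matches, 1 base apart, form 1 run of capitals.

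Among the chemokine receptors, Cxcr4, which binds Cxcl12, had the lowest first-day value, on 1 of its 2 probes. Probe 52D06 was below 0 on all 23 arrays. It gave -1.45, -0.80 and -0.74 at 4 h, -0.92, -1.14 and -1.67 at 8 h, and -0.59, -1.01 and -1.35 at 18 h, the times at which it was called. Each of these 3 calls was lost without at least 1 array of its own time, the 8 h one without replicate 3 (-1.03, adjusted p = 0.0606). The 4 h call held in 15 of 23 fits that left out 1 array, and some of its losses came without an array of another time. The first-day mean was -0.82 ± 0.09, or 1.77-fold lower (adjusted p = 4.19e-06). Probe 25F02 of the same gene had a first-day mean of -0.03 ± 0.09 (adjusted p = 0.863), with 8 of 15 arrays above 0. At 148 h, 25F02 gave 1.49, 1.98 and 0.31 where 52D06 gave -0.85, -1.47 and -0.71. With equal weights both were called there, in opposite directions (adjusted p = 0.00492 and 0.0155). With array weights neither was (0.0846 and 0.15). The ligand Cxcl12 had first-day arrays of -0.96 to 0.21 and a mean of -0.16 ± 0.11 (adjusted p = 0.306).

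Ccr1, a receptor of Ccl3 and Ccl5 on monocytes and neutrophils, was the other receptor with a lower first-day mean (-0.59 ± 0.18, adjusted p = 0.0303). Its arrays ran from -3.17 to 0.45 with a median of -0.44, and 12 of 15 were below 0. The lowest was an array at 4 h, whose 2 companions gave -0.07 and -0.96, and with equal weights the mean was not called (adjusted p = 0.14). It was called in 17 of 23 fits that left out 1 array, with -0.70 to -0.39, the nearest to 0 without that 4 h array. Ccr7, which guides lymphocytes and dendritic cells to lymph nodes, gave -0.01, -2.24 and -0.82 at 48 h, called with equal weights only (adjusted p = 0.034, and 0.175 with array weights). The highest receptor means were those of Cxcr3 (0.33) and Cxcr1 (0.25 ± 0.14, adjusted p = 0.199), and neither was called.

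The interleukins moved in both directions, as did the array as a whole. Of 17 probes 3 were higher and 2 lower in the first-day mean, with a median of 0.16 and a range of -0.47 to 1.15. Of all 4946 probes tested, 563 were higher and 625 lower (24% called). Il15, a growth factor of natural killer cells and T cells, was above 0 on 13 of 15 first-day arrays. Those arrays ran from -0.42 to 2.27, with a median of 0.26 and a mean of 0.41 ± 0.12, 1.33-fold higher (adjusted p = 0.0212). The call was lost without replicate 2 at 12 h (0.41) or replicate 2 at 24 h (0.33), with an adjusted p of up to 0.067. Il1a, an interleukin 1 that cells release on damage, was highest at 8 h, where its arrays gave 0.60, 0.89 and 1.13 (adjusted p = 0.116). Its first-day mean was 0.32 ± 0.11 (adjusted p = 0.0454, and 0.198 with equal weights), and it was called in 11 of 23 fits that left out 1 array (0.23 to 0.39).

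Il7, a survival factor of lymphocytes, was lower on every first-day array. The 15 values ran from -0.97 to -0.11 with a median of -0.52, and the mean was -0.47 ± 0.08, or 1.39-fold lower (adjusted p = 0.000356). At late times its arrays gave -0.56, -0.56 and 0.39 at 48 h, 0.19 and 1.5 at 148 h, and -0.16 at 296 h. Both 148 h arrays were above 0, and both were sparse arrays (adjusted p = 0.259, and 0.0448 with equal weights).

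Il5, the growth factor of eosinophils, was called at 24 h but not steadily. Its arrays gave 3.15, 0.96 and 0.14 there (1.10 ± 0.32, adjusted p = 0.0484, and 0.0581 with equal weights). The call held in 2 of 23 fits that left out 1 array, with values of 0.55 to 2.06. The other 12 first-day arrays lay between -0.57 and 0.79.

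Il3, a growth factor of mast cells and basophils, gave the highest first-day mean of all members on one probe and was not called on the other. Probe 52B11 was above 0 on 23 of 23 arrays. It gave 1.54, 1.5 and 0.98 at 4 h, 0.81, 1.67 and 1.46 at 8 h, and 1.28, 1.61 and 1.13 at 24 h. Its first-day mean was 1.15 ± 0.09, or 2.22-fold higher (adjusted p = 1.48e-07), and it was called at each of the 5 first-day times. The 24 h call held in 23 of 23 fits that left out 1 array, and the others were lost without at least 1 array of their own time (adjusted p up to 0.161 at 12 h). Probe 26B07 gave -0.47, 0.07 and -0.89 at 4 h, -0.43, -0.25 and -0.87 at 8 h, and -0.70, 0.28 and 0.00 at 24 h. Its first-day mean was -0.19 ± 0.09 (adjusted p = 0.143), so no first-day array of 52B11 overlapped any of 26B07. The receptor subunits Il3ra (-0.13 ± 0.11) and Csf2rb (0.06 ± 0.06) were not called in the first-day mean. Of 12 neutrophil and mast cell genes looked for, 6 were on the array. The mast cell tryptase Tpsb2 was lower in the first-day mean (-0.64), and the other 5 were not called in it. At 148 h the mast cell carboxypeptidase Cpa3 was lower (-3.98, adjusted p = 0.027), and the other 5 were not called. The part of these cells in the Il3 values was not tested.

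Il1b, the main secreted form of interleukin 1, also depended on the probe. On 52A11 the first-day arrays ran from -1.13 to 0.01 with a median of -0.30, and the mean was -0.41 ± 0.08, 1.33-fold lower (adjusted p = 0.00169). On 25H04 they ran from -0.41 to 0.69, and the mean was 0.16 ± 0.08 (adjusted p = 0.19). At 148 h 52A11 gave -1.04, -1.75 and -1.21, the only member value called at a late time with array weights (-1.40 ± 0.40, adjusted p = 0.0366), and 25H04 had no value there. That call was lost without any 1 of the 3 arrays (-1.48 to -1.13, adjusted p up to 0.27). The calls of 52A11 at 12 h (-0.59) and 24 h (-0.73) were each lost without any 1 array of their own time, and the 12 h call held in 8 of 23 such fits, with -0.93 to -0.51 and an adjusted p of up to 0.314.

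The receptors of the interleukin 1 family changed unevenly. Il1rl2, the receptor of interleukin 36, was below 0 on all 15 first-day arrays. Those ran from -2.23 to -0.09 with a median of -0.55, and the mean was -0.69 ± 0.15, 1.61-fold lower (adjusted p = 0.00421). Il1r2, a decoy that binds interleukin 1 without signalling, was above 0 on 13 of 15 arrays. Its arrays ran from -0.33 to 3.29 with a median of 0.33, and its mean was 0.53 ± 0.19 (adjusted p = 0.0456, and 0.0836 with equal weights), called in 6 of 23 fits that left out 1 array (0.37 to 0.70). Il1rap, the shared co-receptor, had a mean of -0.34 ± 0.14 (adjusted p = 0.0993) with 13 of 15 arrays below 0. Il1rl1, the receptor of interleukin 33, had means of 0.11 and 0.00 on its 2 probes, and was not called.

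Il2rb, the subunit that interleukins 2 and 15 share, was above 0 on 14 of 15 first-day arrays. They ran from -0.02 to 1.58 with a median of 0.46, and the mean was 0.51 ± 0.11, 1.43-fold higher (adjusted p = 0.00401). Il2rb and its ligand Il15 were thus both higher in lesioned ganglia over the first day. T cell genes stood at 0 called of the 8 on the array, with first-day means of -0.23 to 0.15 (24% of all probes were called in that mean). Il6r, the binding receptor of interleukin 6, was below 0 on 13 of 15 first-day arrays, which ran from -1.01 to 0.21, but its mean of -0.29 ± 0.11 was not called (adjusted p = 0.0624). Il4r, the interleukin 4 receptor, gave 0.35 and 2.56 at 48 h and was called there only with equal weights (adjusted p = 0.0277, and 0.153 with array weights).

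**Figure D4:**
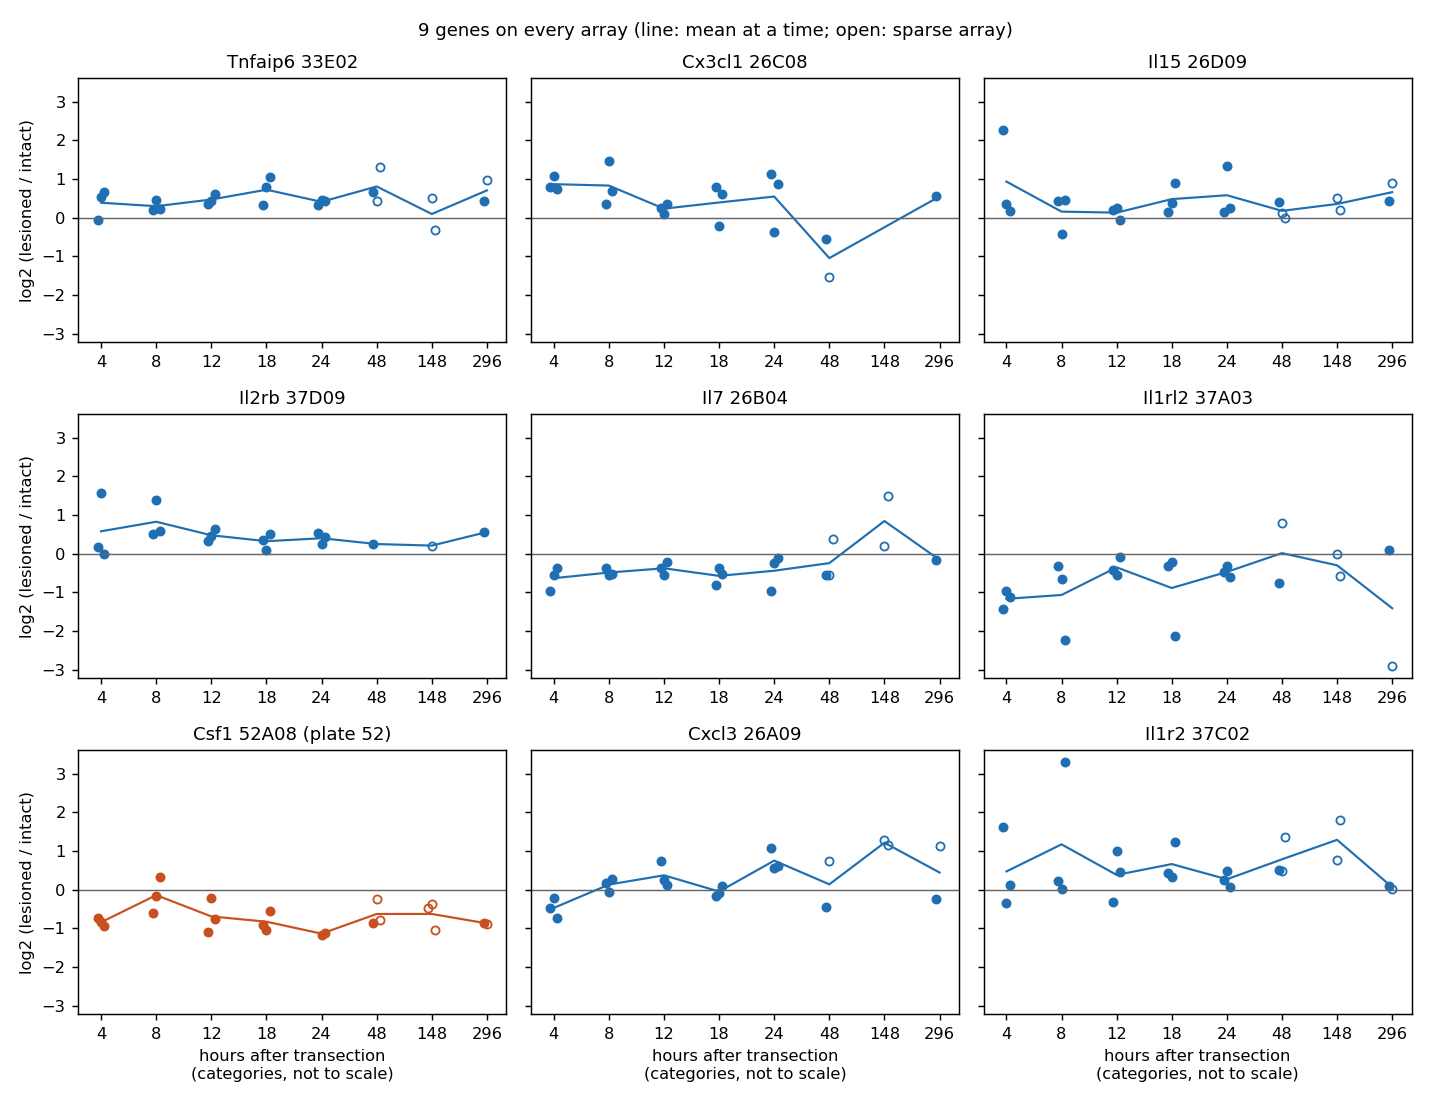
Log2 ratio (lesioned over intact) on every array against hours after transection for 9 member probes; lines join the mean of each time and open circles mark sparse arrays. Tnfaip6, Il2rb and Il7 keep 1 side of 0 on at least 14 of 15 first-day arrays, whereas single arrays reach 2.27 for Il15 and 3.29 for Il1r2.

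The TNF family itself gave few calls. None of the 3 TNF ligand probes and none of the 6 TNF receptor probes was called in the first-day mean, against 24% of all probes. At an unadjusted p under 0.05 there were 1 of the 3 and 2 of the 6, against 36.7% of all probes. Tnf, the founding member, ran from -1.43 to 0.66 over the first-day arrays (mean -0.21 ± 0.12, adjusted p = 0.226). Tnfsf11, known as RANKL, had a mean of 0.29 ± 0.13 (adjusted p = 0.116), and its decoy receptor Tnfrsf11b, osteoprotegerin, a mean of -0.45 ± 0.20 (adjusted p = 0.122). Tnfrsf11b gave -1.38, -0.61 and -4.21 at 48 h and was called there only with equal weights (adjusted p = 0.034, and 0.291 with array weights). The ligand of OX40, Tnfsf4, had a mean of 0.08 ± 0.14 (adjusted p = 0.717). Tnfrsf4, which is OX40 itself, a co-stimulatory receptor of T cells, was lower at 24 h, its only call, where its arrays gave -0.36, -0.62 and -1.37 (-0.87 ± 0.20, adjusted p = 0.0205). Without replicate 2 or replicate 3 this was not called (adjusted p up to 0.408).

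The second TNF receptor, Tnfrsf1b, was scattered on one of its probes. Probe 32A02 had first-day arrays of -1.2 to 3.69, with a median of 0.05 and a mean of 0.96 ± 0.35 (adjusted p = 0.0545). At 148 h it gave -1.5, -3.75 and -1.63 (adjusted p = 0.372, and 0.043 with equal weights). Probe 29H02 had a first-day mean of -0.09 ± 0.18, and the first receptor, Tnfrsf1a, one of 0.25 ± 0.14 (adjusted p = 0.201).

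Tnfaip6 was above 0 on 14 of 15 first-day arrays. Its arrays gave -0.05, 0.54 and 0.67 at 4 h, 0.36, 0.44 and 0.61 at 12 h, and 0.33, 0.80 and 1.04 at 18 h. It was called at 12 h (0.50 ± 0.13, adjusted p = 0.0342) and at 18 h (0.67 ± 0.14, adjusted p = 0.0175), and both calls were lost without at least 1 array of their time (adjusted p up to 0.599 and 0.24). The first-day mean was 0.47 ± 0.07, 1.38-fold higher (adjusted p = 9.83e-05). At 48 h the arrays gave 0.67, 0.44 and 1.31 (adjusted p = 0.179, and 0.0151 with equal weights).

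Of the 8 genes with a higher first-day mean, 5 had a promoter sequence, and 3 of these 5, Tnfaip6, Il15 and Il1a, held the AP-1 letters TGANTCA. Their promoters are shown because these 3 genes were all called as higher over the first day. The calls of Il15 and Il1a were held in 21 and 11 of 23 fits that left out 1 array. AP-1 is the dimer of Fos and Jun proteins. The same letters stood in 8 of 54 member promoters (14.8%) and in 6.34% of all promoters. None of the 4 promoters of the genes with a lower mean held them, and 5 of the 45 promoters of genes that were not called did. STAT letters, TTCNNNGAA, stood in 4 of 54 member promoters (7.41%), against 7.67% of all. The sequences are the 250 bases before the start, at chr3:56911148-56911397 on the plus strand (Tnfaip6), chr19:42544456-42544705 on the plus strand (Il15) and chr3:136990018-136990267 on the minus strand (Il1a), with AP-1 letters in capitals.
Tnfaip6: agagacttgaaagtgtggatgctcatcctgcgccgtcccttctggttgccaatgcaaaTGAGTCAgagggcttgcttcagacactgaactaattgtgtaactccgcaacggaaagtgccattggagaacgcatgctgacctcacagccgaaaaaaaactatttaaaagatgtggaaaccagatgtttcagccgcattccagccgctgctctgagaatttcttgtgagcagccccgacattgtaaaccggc
Il15: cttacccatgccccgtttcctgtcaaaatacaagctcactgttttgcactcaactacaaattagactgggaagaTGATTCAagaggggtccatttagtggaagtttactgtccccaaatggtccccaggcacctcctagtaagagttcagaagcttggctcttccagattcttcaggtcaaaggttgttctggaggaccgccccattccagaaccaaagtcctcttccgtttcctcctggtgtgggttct
Il1a: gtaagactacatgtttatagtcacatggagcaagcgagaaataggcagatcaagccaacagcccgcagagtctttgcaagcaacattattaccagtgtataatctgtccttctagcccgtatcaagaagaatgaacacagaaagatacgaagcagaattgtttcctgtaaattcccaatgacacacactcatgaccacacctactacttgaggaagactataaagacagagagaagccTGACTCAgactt
The match begins 192 bases before the start in Tnfaip6, 176 in Il15 and 12 in Il1a.

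Csf1, the growth factor of macrophages and microglia, was the only called member of the colony-stimulating factors, and it was lower. In the first-day mean that is 1 of 5 probes, against 24% of all probes. Its arrays gave -0.74, -0.84 and -0.94 at 4 h, -0.59, -0.17 and 0.34 at 8 h, and -0.91, -1.03 and -0.54 at 18 h. At 24 h 2 arrays measured it, with -1.16 and -1.11. It was called at 4, 12, 18 and 24 h, and at 8 h its 3 arrays fell on both sides of 0. The 24 h value could not be tested without either of its 2 arrays. The 21 of 21 fits in which its call held left out only other arrays. The 4, 12 and 18 h calls were lost without at least 1 array of their time (adjusted p up to 0.226, 0.302 and 0.314). The first-day mean was -0.74 ± 0.08 (SE, n = 14), 1.66-fold lower (adjusted p = 5.68e-06). Its late values lay between -1.04 and -0.23 and were called at all 3 late times with equal weights (adjusted p = 0.0467, 0.0302 and 0.0422) and at none with array weights (0.33, 0.323 and 0.505). Csf1 had a single probe, 52A08, of plate 52. Its receptor Csf1r had a first-day mean of 0.18 ± 0.18, and Csf2 one of 0.16 ± 0.13.

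The interferons gave no called value with array weights. In the first-day mean they had 4 probes, and 24% of all probes were called. Ifng, the interferon of T cells and natural killer cells, had 13 of 15 first-day arrays above 0 and a mean of 0.46 ± 0.18 (adjusted p = 0.0682). Its receptor Ifngr1 was measured on 23 of 23 arrays and stayed near 0, with a first-day mean of 0.03 ± 0.06. Ifna5, an interferon alpha, had one of -0.02 ± 0.10. Ifnb1 gave 0.00 and 3.87 at 48 h, a value called with equal weights (adjusted p = 0.0332) that rests on 1 sparse array.

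Several of these results came from probes of plate 52. In the first-day mean 5 of the 6 member probes of that plate were called (83.3%), against 10 of 72 on other plates (13.9%). The plate stood apart for all its probes, with 59 of 95 called (62.1%), against 1129 of 4851 elsewhere (23.3%). Ccl2, Il3, Cxcr4 and Il1b each had 1 probe on it and 1 elsewhere, and only for Ccl2 did both probes pass in the same direction. With all arrays weighted equally, the first-day mean of the probe off the plate minus that of the probe on it was 0.38 for Ccl2, -1.41 for Il3, 0.86 for Cxcr4 and 0.61 for Il1b. Across all genes with 2 probes, 1 of them on plate 52, the signs of the first-day means were the same in 23 of 62, against 57 of 106 for genes with both probes elsewhere. Averaging the probes of a gene gave first-day means of 0.74 for Ccl2, 0.49 for Il3, -0.43 for Cxcr4 and -0.13 for Il1b, the last with an adjusted p of 0.245. Csf1 and Ccr2 had no probe off the plate. The part of the plate in the Il3, Cxcr4, Il1b and Csf1 values was not tested.

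Of the probes on at least 14 first-day arrays, 5 of 75 members (6.67%) had 1 sign on all of them, against 202 of 4893 probes in all (4.13%). They were Ccl2 26C01, Il7, Il1rl2, Il3 52B11 and Cxcr4 52D06, the last 2 from plate 52. The first-day means of Ccl2 (both probes), Cx3cl1, Tnfaip6, Il7, Il1rl2, Il2rb, Csf1, Il3 52B11, Cxcr4 52D06 and Il1b 52A11 stayed past the threshold in each fit that left out 1 array. For Csf1 these were 21 fits, because its first-day mean could not be tested without either of its 2 arrays at 24 h.

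A few of the intracellular genes that carry these signals were called in the first-day mean, 1 of 9 and 3 of 14 probes in the lists below, against 24% of all probes. Of 34 genes of NF-kB and TNF signalling looked for, 9 were on the array. In the first-day mean 0 were higher and 1 was lower, the apoptosis inhibitor Birc3 (-0.85, and -2.62 at 4 h). Of 25 JAK-STAT genes, 14 were on the array and 13 were tested in the first-day mean. Socs3, a feedback inhibitor of STAT3 signalling, was higher (0.46). Socs1, an inhibitor of interferon signalling, was lower on its probe of plate 52 (-0.27, and -1.53 at 48 h with an adjusted p of 0.0342). Stat5a was lower on probe 47A04 (-0.47) and not called on 7H01 (0.09).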

How the data were processed

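The values deposited by the authors were linear ratios of the dye channels, for 5088 probes on 23 arrays of spotted oligonucleotides labelled with dendrimers. Scanner software, background correction, within-array normalization and the rule that left ratios empty are not given in the sources used here. Without intensities the signal over background is unknown, and precision is limited by how many arrays there are. Ratios, none of them 0 or below, were taken to log2 with no offset, centring or scaling. Symbols came from the platform annotation, and all 78 member identifiers matched the reference gene table with 0 symbols changed.

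A mean for each of the 8 times was fitted over all arrays with limma 3.58.1 in R 4.3.3, with array weights of 0.224 to 3.10, exactly per probe where arrays were missing. A probe was tested where at least 2 arrays of each time in the comparison measured it. Comparisons were each time against 0, the first-day mean (4 to 24 h), a moderated F-test between the 5 first-day times, and late (48 to 296 h) minus early (4 to 12 h). P-values were two-sided and adjusted by Benjamini-Hochberg over all tested probes, with a threshold of 0.05. Standard errors rest on the moderated variance, which draws on all arrays. The fit was tested on simulated data.

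Members, gene lists and comparisons were chosen with earlier results of these data known. Named were Ccl2, Il3 and Cxcr4, every member called in a comparison, genes with 2 probes, and the 2 highest and 2 lowest first-day means of each role. Ligands or receptors of a called member, and Ccl20, Cxcl1, Cxcl2, Cxcl6 and Il6r, were named after their values were seen. Alternatives were equal weights, median centring, scaling between arrays, full arrays only, all arrays of a time, the mean of a gene's probes, robust variance, a replicate block, probes of plates 36, 52 and 53 left out, the methods' t-test and leaving out each array. Weights by array class were added after seeing the data. Full arrays lacked fewer than 200 probes. Promoters came from RefSeq (GRCr8).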

Additional observations from a re-analysis of the deposited data

Results flagged for a closer look

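For 15 of the 78 member probes every array of a late time lay on one side of 0 and every array of an early time on the other, in 23 pairs of times. These differences between single times were not tested. How many of all probes meet this rule was not counted, so the 15 cannot be set against the array as a whole. The values are means with all arrays weighted equally, over 3 early arrays and 2 late ones, except 3 late ones for Il5 at 48 h and Tnfrsf1a at 148 h. All 148 h arrays were sparse arrays, and at 48 and 296 h 1 array of each mean was a full one.

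Among the interleukins, Il7 averaged 0.85 at 148 h, against -0.64 at 4 h, -0.49 at 8 h and -0.38 at 12 h, which are differences of 1.48, 1.33 and 1.22. The Il3 probe 26B07 averaged 0.09 at 148 h and -0.52 at 8 h, a difference of 0.61. Il5 averaged 0.48 at 48 h, 1.03 at 148 h and 0.63 at 296 h, against -0.31 at 12 h, which are differences of 0.79, 1.34 and 0.94.

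Among the chemokine ligands, Cx3cl1 averaged -1.04 at 48 h, against 0.87 at 4 h, 0.83 at 8 h and 0.23 at 12 h, which are differences of -1.91, -1.87 and -1.28. Cxcl6 averaged -0.73 at 48 h and 0.73 at 4 h (-1.45), and Cxcl10 averaged -0.37 at 48 h and 0.47 at 12 h (-0.83). Cxcl3 averaged 1.21 at 148 h and -0.47 at 4 h (1.68).

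Among the receptors, Cx3cr1 averaged 0.39 at 48 h and -0.35 at 4 h (0.74). All other such differences were from 12 h. Cxcr1 averaged 0.27 at 48 h and 1.42 at 296 h, against -0.24 at 12 h (0.51 and 1.67). Il12rb1 averaged 1.61 at 48 h and -0.63 at 12 h (2.24), and the Il1rl1 probe 25E02 averaged -0.69 at 48 h and 0.10 at 12 h (-0.79). Il1rap averaged 0.42 at 148 h and -0.50 at 12 h (0.93). Csf2rb averaged -0.54 at 148 h and -0.33 at 296 h, against 0.21 at 12 h (-0.75 and -0.54). Tnfrsf1a averaged -0.69 at 148 h and 0.56 at 12 h (-1.24). Tnfrsf4 averaged 0.32 at 48 h and -0.17 at 12 h (0.49).

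Of these probes, those of Il1rl1, Il1rap, Cxcl3, Cxcl10, Il5, Tnfrsf1a and Csf2rb also had enough arrays for the test of late minus early, and none of them was called in it with array weights.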

How the results depend on the processing

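No called value of a single member reversed its sign under the alternatives fitted to single values or when any 1 array was left out; the methods' t-test gave counts only. Of 41 values called with array weights, 16 stayed past the threshold and 25 lost it with equal weights. The losses were 1 with median centring, 3 with scaling between arrays, 13 of 40 with full arrays only, 0 of 39 with probes measured on all arrays of a time, 12 with the mean of a gene's probes, 0 with robust variance, 6 with weights by array class and 1 of 19 without plates 36, 52 and 53. Over the fits that left out 1 array, 813 of 939 values stayed and 126 lost the threshold. For a value of a single time, most of these fits left out an array of another time, which does not enter its mean. The share that stayed therefore does not measure how such a call stands without an array of its own time.

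Counts of called members moved by more than 1.5 times as follows, and the cause was not tested. Shares of all probes are given above for equal weights and, at first-day times, without plates 36, 52 and 53. They are not given for the other alternatives, so those counts cannot be set against the array as a whole. Equal weights gave 0 at 4 h, 2 at 8 h, 0 at 12 h, 0 at 18 h, 1 at 24 h, 9 at 48 h, 9 at 148 h, 4 at 296 h and 1 in late minus early. Scaling between arrays gave 2 at 48 h, 1 at 296 h and 1 in late minus early. Full arrays only gave 1 at 12 h, 3 at 18 h and 5 at 48 h. At 48 and 296 h only 1 full array was left, short of the 2 otherwise required, and it is assumed to vary like the other groups. Full arrays could give no value at 148 h or in late minus early. Averaging a gene's probes, which leaves fewer features, gave 1 at 4 h, 1 at 8 h, 3 at 12 h, 3 at 24 h and 1 in late minus early. Leaving out plates 36, 52 and 53, which removes 6 member probes, gave 0 at 4 h, 1 at 8 h, 2 at 12 h, 2 at 18 h, 3 at 24 h and 0 at 148 h. Weights by array class gave 2 at 12 h, 4 at 48 h, 0 at 148 h and 1 in late minus early. The methods' t-test at its unadjusted threshold gave 9 at 4 h, 11 at 8 h, 11 at 18 h, 15 at 24 h, 7 at 48 h, 3 at 148 h and 2 at 296 h. After Benjamini-Hochberg it gave 0 at each first-day time and 0 at 148 h.

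When each array was left out in turn, the counts ran from 0 to 3 at 4 h, 2 to 5 at 8 h, 0 to 6 at 12 h, 0 to 5 at 18 h and 1 to 7 at 24 h. They ran from 0 to 1 at 48 h, 0 to 1 at 148 h, 10 to 16 in the first-day mean and 0 to 0 between the first-day times. Over all probes the counts ran from 23 to 93, 26 to 69, 6 to 197, 23 to 114 and 57 to 312 at the first-day times. They ran from 49 to 186 at 48 h, 53 to 294 at 148 h, 922 to 1208 in the first-day mean and 0 to 8 between the first-day times. At 296 h, leaving out either array leaves a lone one, so no range is given there or in late minus early. The lowest in the first-day mean came without replicate 2 at 24 h.

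Replicate numbers did not pair the samples. Deviations of same-numbered arrays correlated at -0.14 to 0.12, 4 of 77 pairs were over 0.1, and 9 of 23 arrays matched best with their own number. With the replicate block 2 members were called at 4 h, 5 at 12 h and 15 in the first-day mean, the other counts were those without it, and 4 of 41 called values lost the threshold.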
